A study of Mus musculus with 10 samples.

Results

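The major urinary protein (Mup) genes encode a family of small lipocalins, barrel-shaped carrier proteins that hepatocytes secrete into the blood and that pass through the kidney into mouse urine, where they bind volatile pheromones and act as scent signals themselves. The members were selected on gene name, as every row of the liver count table whose Ensembl identifier belonged to a protein-coding gene named Mup followed by a number, and the family itself was chosen by its known values in the comparison described here, so its difference between groups is given as a description with no test. Of 22 such genes in the annotation, 16 were in the table of 12148 genes. Mup4, Mup5, Mup9, Mup10, Mup13 and Mup18 were annotated but not among its rows. All 22 lie in one cluster on chromosome 4 (GRCm38, from 59956804 to 62150863).

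Liver is the main source of these proteins, and their output is known to be higher in males, where pulses of growth hormone act through the receptor Ghr, the kinase Jak2 and the transcription factor Stat5b. Thyroid hormone, glucocorticoids and nutrition are also known to affect them. Mup20, also called darcin, is the male pheromone protein that attracts females and aids their memory of place.

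RNA was sequenced from whole livers of germ-free (GF) wild-type C57BL/6 mice, that is, animals raised without a microbiota. The GF+MEV group of 5 mice was given by mouth 80 µg of extracellular vesicles that had been purified from gut contents of colonised control mice (MEV), in phosphate-buffered saline (PBS), 2 times a week for 3 weeks, and the GF+PBS group of 5 mice was given PBS alone. Age and sex of the germ-free animals were not given in the sources used here. Eif2s3y, Kdm5d, Uty and Ddx3y, all on the Y chromosome, were counted in all 10 livers, and Xist was not a row of the table.

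The libraries held between 15746119 and 20523649 gene counts, and levels are given as CPM, the counts of a gene scaled to a common library size after TMM normalization. Summed over the 19 hepatocyte protein genes examined, among them Alb and Ttr, the level was 144444 to 165045 CPM in GF+MEV and 141992 to 161497 CPM in GF+PBS. The 8 Kupffer cell markers summed to 256 to 484 CPM and 295 to 421 CPM, the 8 endothelial markers had their lowest sum at 156 CPM and 184 CPM, and the 8 stellate markers summed to 198 to 281 CPM and 231 to 249 CPM. The 3 cholangiocyte markers in the table summed to 28.1 to 79.3 CPM and 23.2 to 29.7 CPM, the 4 lymphocyte markers to 8.21 to 15.5 CPM and 13.5 to 16.4 CPM, and the 4 skeletal muscle genes to 224 to 310 CPM and 191 to 664 CPM, GF+MEV first in each case. Their part in the Mup levels was not tested. GF+MEV replicate 2 stood apart, with a chi-square per gene of 135 to 176 against the other GF+MEV libraries, where the other pairs within a group gave 6.36 to 25.0. In whole liver RNA, fewer cells of a type and less RNA per cell cannot be told apart.

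The 16 Mup genes fell into unequal sequence classes, which decides how well reads can be assigned to each. The central copies, 12 in number (Mup1, Mup2, Mup7, Mup8, Mup11, Mup12, Mup14, Mup15, Mup16, Mup17, Mup19 and Mup22), shared 98.4% to 99.8% of coding bases with each other. Mup20 was 90.1% to 91.4% identical to them, Mup6 89.3% to 90.2%, Mup21 83.7% to 84.8% and Mup3 82.4% to 83.7%. Mup3 and Mup21, neighbours at the end of the cluster, were 94.8% identical to each other. To show how far apart the classes are, 60 coding bases within a single exon are printed here for Mup3, Mup20, Mup21 and 4 central copies (Mup7, Mup14, Mup15 and Mup22). The window was chosen where Mup20 differs most from Mup15, and bases that differ from Mup15 are in capitals (5′ to 3′, coding strand, GRCm38; the genes are on the minus strand).
Mup15: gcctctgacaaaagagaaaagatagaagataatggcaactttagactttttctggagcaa
Mup7: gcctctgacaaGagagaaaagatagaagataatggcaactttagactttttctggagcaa
Mup14: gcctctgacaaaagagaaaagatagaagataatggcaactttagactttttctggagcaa
Mup22: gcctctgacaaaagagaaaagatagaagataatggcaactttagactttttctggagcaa
Mup20: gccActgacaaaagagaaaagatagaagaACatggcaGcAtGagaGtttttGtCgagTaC
Mup3: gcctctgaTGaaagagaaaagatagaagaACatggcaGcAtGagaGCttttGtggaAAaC
Mup21: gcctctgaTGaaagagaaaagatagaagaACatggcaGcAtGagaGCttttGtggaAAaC
The stretches lie at chr4:61439109-61439168 (Mup15), chr4:60069777-60069836 (Mup7), chr4:61303366-61303425 (Mup14), chr4:60820892-60820951 (Mup22), chr4:62053524-62053583 (Mup20), chr4:62086844-62086903 (Mup3) and chr4:62150239-62150298 (Mup21). Within them Mup14 and Mup22 had 0 differences from Mup15, Mup7 had 1, Mup20 had 11, and Mup3 and Mup21 had 13 each.

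A read that falls wholly in sequence shared by several copies cannot be placed in one of them. Of all 100-base stretches of its annotated transcripts, Mup3 shared 2.23% with another gene, Mup21 4.50% and Mup6 0%. For Mup20 the share was 38.8%, and the only other gene that held those stretches was the pseudogene Mup-ps19. Central copies shared between 55.7% (Mup1) and 100% (Mup19 and Mup22) of their stretches, with a median of 75.9%, and Mup15 shared 97.3%. Counts of Mup3, Mup20 and Mup21 could therefore be assigned from their own sequence over 1068, 735 and 677 exonic bases at this length. Among central copies this ranged from 0 bases for Mup19 and Mup22 and 121 for Mup15 to 838 for Mup11 and 950 for Mup1. How the counting treated reads that align equally well to several genes was not given in the sources used here, and the level of every central copy is uncertain for this reason. The absent genes were of both kinds, since Mup4 and Mup5 shared 0% and 1.33% of their stretches, and Mup9, Mup10, Mup13 and Mup18 shared 71.9% to 87.1%.

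**Figure D1:**
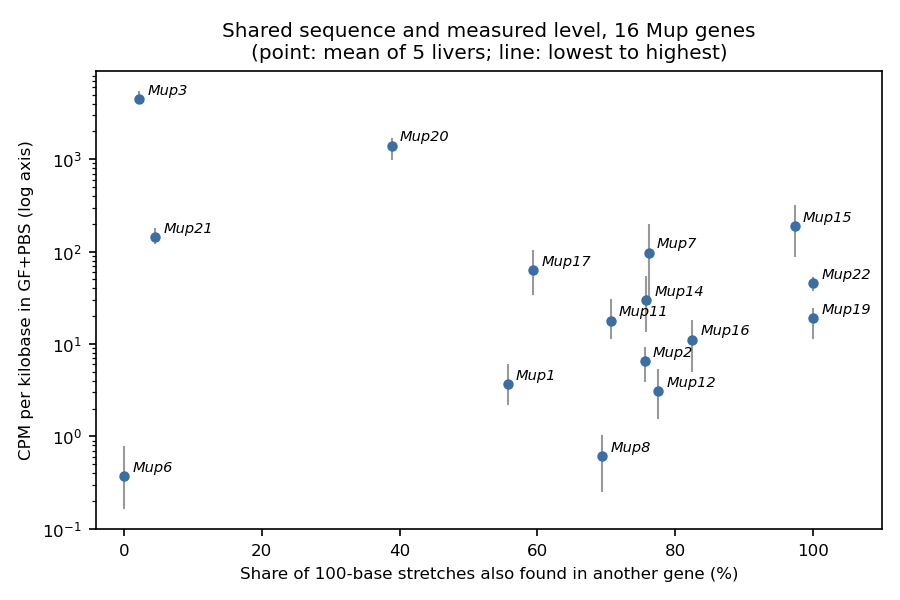
Level per kilobase of exon in GF+PBS (log axis, mean of 5 livers with a line from the lowest to the highest) against the share of 100-base stretches of each gene that also occur in another gene, for 16 Mup genes. Mup3 (2.23% shared) and Mup20 (38.8%) stood above the rest at 4488 and 1408 CPM per kilobase, and Mup19 and Mup22 at 100% shared had 19.0 and 45.3.

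By assigned counts, Mup3 was the most abundant member and had the 17th highest mean CPM of all tested genes. Its level in GF+PBS replicates 1 to 5 was 5692, 4424, 5005, 4389 and 4455 CPM, and in GF+MEV replicates 1 to 5 it was 5153, 5796, 4063, 5677 and 5188 CPM. Both the highest and the lowest liver were in GF+MEV, and the groups overlapped over most of their range. The means were 4793 ± 563 CPM in GF+PBS and 5175 ± 685 CPM in GF+MEV (SD over 5 livers), and the log2 fold change was 0.11 with a standard error (SE) of 0.12. Mup3 took 69.6% to 75.6% of the summed Mup level in GF+PBS and 56.9% to 66.8% in GF+MEV. Every GF+MEV liver thus had a smaller share than every GF+PBS liver. The sum includes Mup20, whose groups did not overlap, so the separation of these shares is not independent of Mup20. Reads may be missing from the central copies, so the rank of Mup3 and all shares of the summed level describe assigned counts.

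Mup20 was second, with the 71st highest mean CPM. In GF+PBS replicates 1 to 5 it was 1547, 922, 1256, 1361 and 1447 CPM, and in GF+MEV replicates 1 to 5 it was 2333, 3028, 1789, 2510 and 2064 CPM. The lowest GF+MEV liver was above the highest GF+PBS liver, and Mup20 was the only member whose groups did not overlap. The log2 fold change was 0.84 (SE 0.18), or 1.79-fold, from 1307 ± 240 CPM to 2345 ± 469 CPM (SD, n = 5 each). As a share of the summed level it was 15.8% to 23.1% in GF+PBS and 26.1% to 29.7% in GF+MEV.

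Mup21 is the nearest relative of Mup3 in coding sequence. Its values were 118, 83.3, 102, 86.8 and 92.4 CPM in GF+PBS and 154, 165, 103, 161 and 116 CPM in GF+MEV. GF+MEV replicates 1, 2 and 4 exceeded all GF+PBS livers, and replicates 3 and 5 were within the GF+PBS range. The log2 fold change was 0.53 (SE 0.16). Mup6, a copy on the opposite strand at the other end of the cluster, was near the detection limit, with 3 to 17 counts a library and 0.167 to 1.17 CPM.

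Mup7 had the largest fold change of all 16 genes and the widest spread. Its level was 200, 62.1, 184, 27.9 and 31.5 CPM in GF+PBS replicates 1 to 5, and 147, 331, 241, 533 and 83.5 CPM in GF+MEV. The highest liver was 7.16 times the lowest within GF+PBS and 6.38 times within GF+MEV, and the groups overlapped. With a log2 fold change of 1.40 and an SE of 0.76, the difference between the means (SD over 5 livers: 101 ± 84.1 CPM in GF+PBS and 267 ± 176 CPM in GF+MEV) was of the order of the spread within a group.

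Mup15, the central copy with the highest mean CPM, was 290, 161, 257, 82.6 and 87.7 CPM in GF+PBS and 217, 444, 244, 385 and 159 CPM in GF+MEV. Its log2 fold change was 0.72 (SE 0.47). Mup14 had its highest and lowest GF+MEV livers in the same animals, with 73.2, 33.0, 61.0, 19.5 and 19.1 CPM in GF+PBS and 63.1, 125, 66.9, 114 and 42.2 CPM in GF+MEV (1.0004, SE 0.50). Mup17 was likewise highest in GF+PBS replicates 1 and 3, at 94.3, 53.1, 79.1, 32.3 and 33.1 CPM, against 68.9, 150, 70.0, 112 and 45.9 CPM in GF+MEV (0.61, SE 0.43). In these 3 genes GF+PBS replicates 1 and 3 lay within the GF+MEV range, and replicates 4 and 5 lay below every GF+MEV liver.

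Mup22 went the other way. It was 42.8, 40.7, 45.1, 32.7 and 33.7 CPM in GF+PBS and 29.3, 33.3, 18.9, 25.9 and 22.2 CPM in GF+MEV, a log2 fold change of -0.59 (SE 0.17). Only GF+MEV replicate 2 reached into the GF+PBS range. Mup19 also had a lower mean in GF+MEV (-0.56, SE 0.37), at 7.97 to 22.0 CPM against 12.5 to 25.4 CPM. Mup22 and Mup19 are the copies with no 100-base stretch of their own. At 150 bases Mup19 had 156 exonic bases of its own and Mup22 had 0. Read length was not given, so how far these counts rest on sequence that other members hold as well is not known. The remaining central copies, Mup1, Mup2, Mup8, Mup11, Mup12 and Mup16, had log2 fold changes between -0.16 (Mup2) and 0.35 (Mup16), each smaller than its SE.

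**Figure D2:**
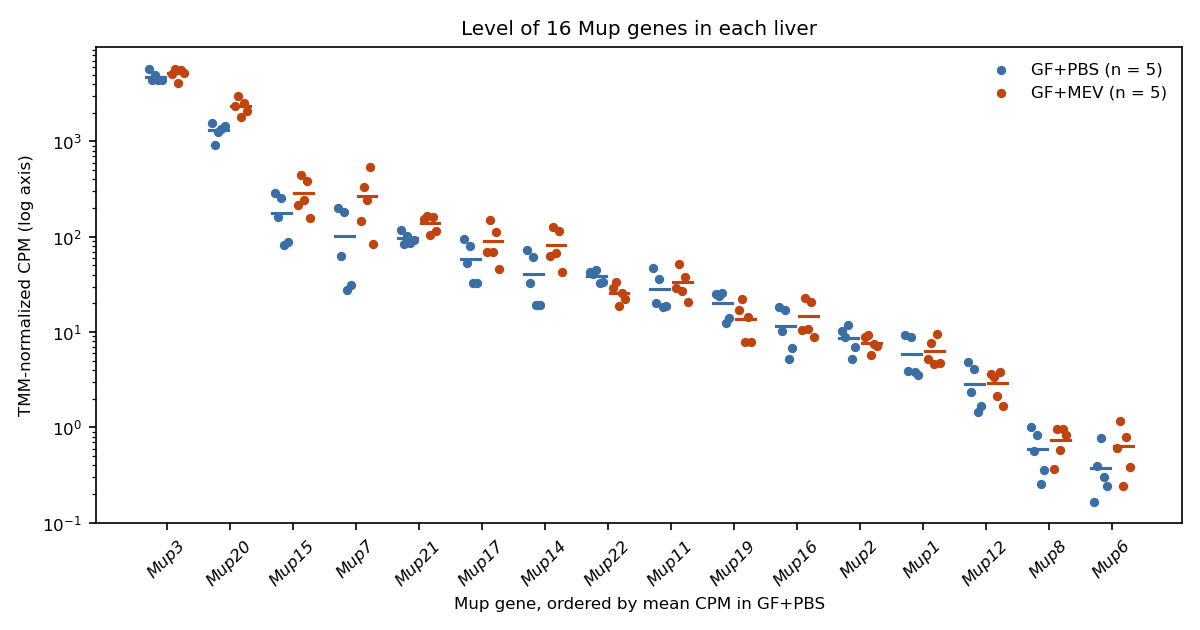
TMM-normalized CPM (log axis) of 16 Mup genes in each of 5 GF+PBS and 5 GF+MEV livers, with a line at each group mean. Mup20 is the gene whose groups do not overlap (922 to 1547 against 1789 to 3028 CPM), and in Mup7 the livers of each group spread over more than 6 times.

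Per kilobase of exon, the order in GF+PBS was Mup3 (4488 CPM per kilobase), Mup20 (1408), Mup15 (190), Mup21 (142), Mup7 (97.8), Mup17 (63.0), Mup22 (45.3), Mup14 (29.8), Mup19 (19.0), Mup11 (17.9), Mup16 (11.2), Mup2 (6.47), Mup1 (3.71), Mup12 (3.12), Mup8 (0.610) and Mup6 (0.375). Mup3 and Mup20 did not overlap the gene ranked next, nor did Mup12 overlap Mup8. Every other neighbouring pair in that order had overlapping ranges over the 5 livers. In GF+MEV, Mup3 was at 4846 and Mup20 at 2527 CPM per kilobase, and Mup7 (259) ranked above Mup21 (206). Mup3 was 3.19 times Mup20 in GF+PBS, or 2.52 times when only the exonic bases with sequence of their own were counted as length. By that length Mup15, with 121 such bases, was at 1451 CPM per kilobase in GF+PBS and Mup20 at 1778. In GF+MEV they were at 2393 and 3190. The gap between Mup20 and the central copies per kilobase of exon therefore depends on the length used.

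Taking the family as a whole, 13 of 16 members had a fold change above 0 in GF+MEV and 3 below (12 and 4 with upper-quartile or no scaling, where Mup12 changed sign). The median log2 fold change was 0.32, against -0.0037 over all 12147 tested genes. By edgeR's quasi-likelihood test with Benjamini-Hochberg adjustment over all tested genes, at an adjusted p under 0.05, Mup20 and Mup21 were called higher and Mup22 lower. The background was 7.64% of tested genes called in either direction, 4.12% higher and 3.52% lower (500 and 428 genes; 428 and 612 with upper-quartile scaling, 332 and 691 without scaling beyond the library total). Groups did not overlap for 1 member, Mup20, and for 7.39% of all tested genes. Because the family was chosen with this contrast known, nothing is read from these counts. Summed over members, the level was 8173, 5850, 7094, 6079 and 6252 CPM in GF+PBS and 8240, 10192, 6656, 9612 and 7772 CPM in GF+MEV. These ranges overlapped, with a log2 ratio of the means of 0.34. Counts assigned to the 16 members made up 0.610% to 0.835% of a GF+PBS library and 0.672% to 0.970% of a GF+MEV library. Reads of the absent genes, and reads that could not be placed in one copy, may be missing from these sums.

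**Figure D3:**
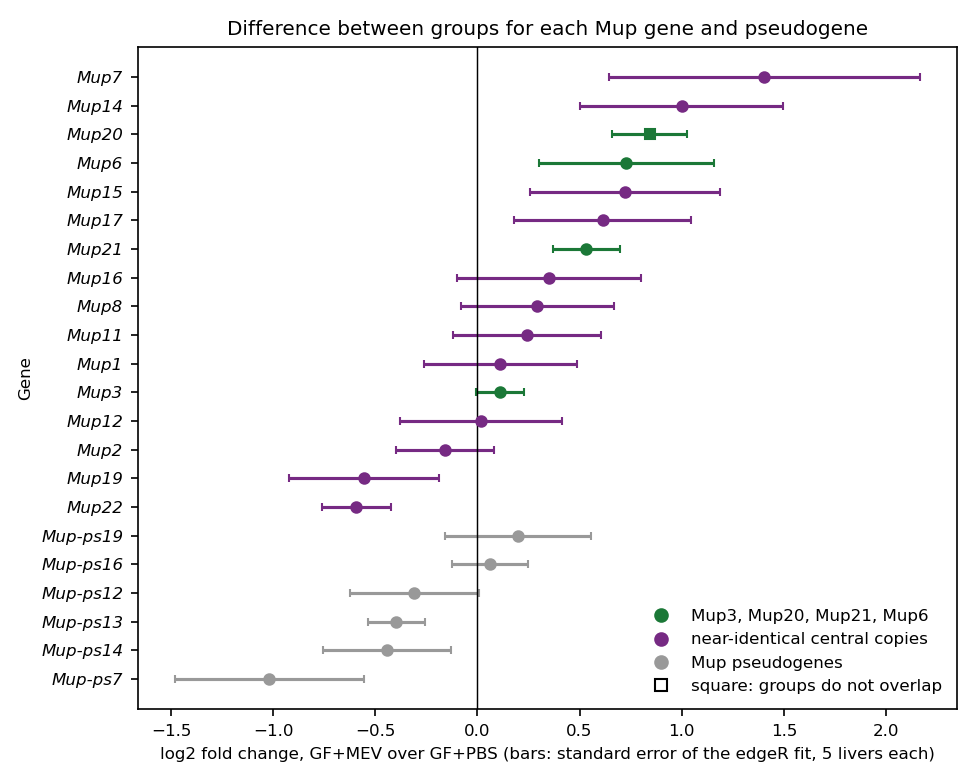
Log2 fold change of GF+MEV over GF+PBS (5 livers each) for 16 Mup genes and, in grey, 6 Mup pseudogenes. Bars are standard errors from a linear model of log2 CPM, although the axis names the edgeR fit. The square marks the gene whose groups do not overlap. Mup7 (1.40) has the largest value and the widest bar, and Mup20 (0.84) a narrower one.

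The alternative fits reuse the livers and the contrast by which the family was chosen. They show only how calls depend on the settings and are no support for a member. Mup20 was past the threshold in all 22 alternative fits, Mup21 in 16 and Mup22 in 20. Mup21 was not called without GF+MEV replicate 1, 2 or 4, without GF+PBS replicate 4, with the alike GF+PBS replicates summed (1 with 3, 4 with 5), or against GF+PBS replicates 1 and 3 alone, and Mup22 not with those sums or against replicates 2, 4 and 5 alone. Against replicates 1 and 3 alone 7 of 16 members had a fold change above 0, and against replicates 2, 4 and 5 alone 14 did. These settings were added after the data were seen and coincide with the Mup levels. In GF+PBS, 14 of 16 members were higher in both replicates 1 and 3 than in 4 and 5. More members above 0 against replicates 2, 4 and 5 therefore follow from the split and are not a separate result. For Mup7 the log2 fold change was 0.47 and 2.72 in these fits, and for Mup20 it was 0.74 and 0.92. In the same fits 1 member and 6 members were called higher, against 5.62% and 3.14% of all tested genes. GF+MEV replicate 2, the library that stood apart, was the highest liver of its group for Mup3, Mup20, Mup21 and the summed level. Without it the log2 fold change was 0.74 for Mup20, 1.31 for Mup7, 0.07 for Mup3 and 0.47 for Mup21, and the log2 ratio of the summed level was 0.27.

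Of 27 annotated Mup pseudogenes, 6 were in the table (Mup-ps7, Mup-ps12, Mup-ps13, Mup-ps14, Mup-ps16 and Mup-ps19). Mup-ps13 was the highest, at 13.7 to 19.2 CPM in GF+PBS and 9.56 to 14.3 CPM in GF+MEV. The pseudogenes had 2 higher and 4 lower means in GF+MEV, with log2 fold changes from -1.02 (Mup-ps7) to 0.20 (Mup-ps19), and 0 were called. Exons of Mup-ps16 overlap those of Gm13775 on the same strand. Mup-ps19, the pseudogene that shares sequence with Mup20, was at 0.835 to 3.38 CPM, far under Mup20 in every liver.

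The variation from liver to liver within a group, which the choice of the family did not use, was shared by the central copies. All 12 were higher in both GF+PBS replicates 1 and 3 than in replicates 4 and 5. Within GF+MEV, 9 of the 12 were highest in replicate 2 and 3 in replicate 4, while 7 were lowest in replicate 5, 4 in replicate 3 and 1 in replicate 1. On deviations of log2 CPM from the group means, the 66 pairs of central copies had a median Pearson r of 0.84 (0.47 to 0.99, 10 livers). Without GF+MEV replicate 2 (chosen after seeing the data) the median was also 0.84 (lowest 0.40, 9 livers). These copies share sequence and libraries, so they are not independent of each other.

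Mup3 had a median r of 0.69 with the 12 central copies and Mup21 0.71, and both were also higher in GF+PBS replicates 1 and 3 than in 4 and 5. Mup20 had a median r of 0.36 with them (0.19 to 0.58). Without GF+MEV replicate 2 these medians were 0.64 for Mup3, 0.65 for Mup21 and 0.18 for Mup20. In GF+PBS replicates 4 and 5, where Mup7 was lowest, Mup20 was at 1361 and 1447 CPM, between replicates 3 and 1. It was lowest in replicate 2.

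**Figure D4:**
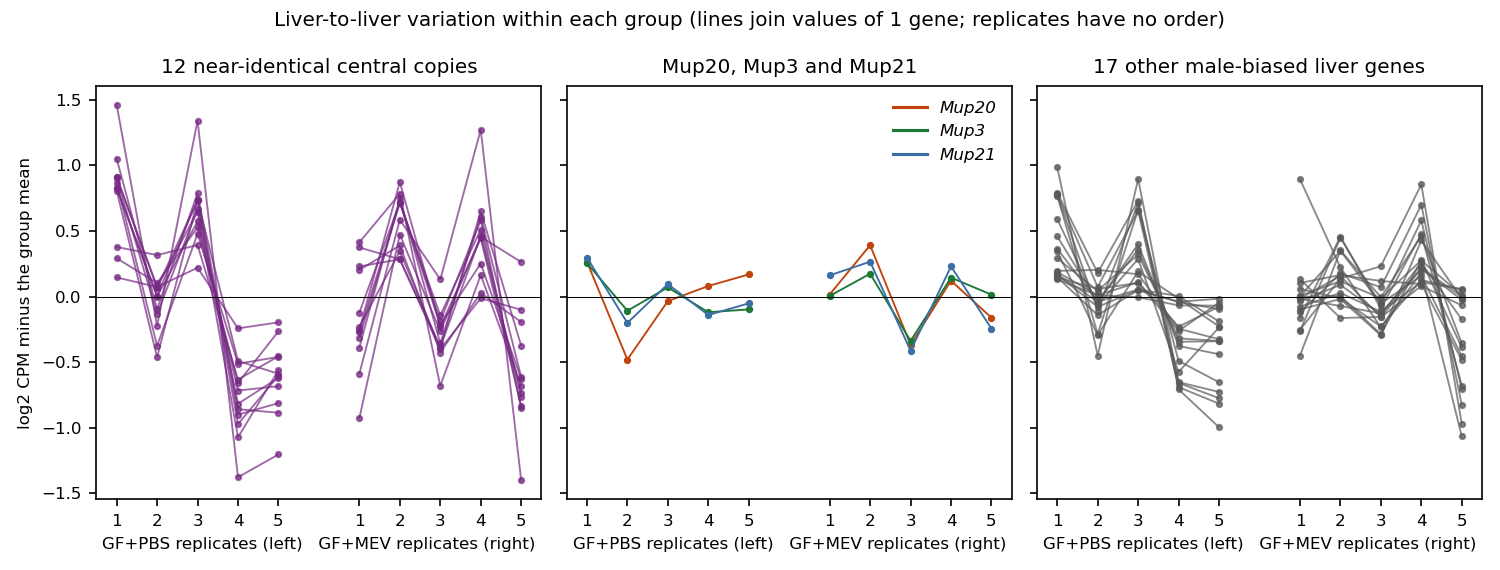
Log2 CPM minus the group mean in each liver (5 GF+PBS, then 5 GF+MEV) for the 12 central copies, for Mup20, Mup3 and Mup21, and for 17 other male-biased liver genes; lines only join the values of 1 gene. The central copies and many of the male-biased genes are above 0 in GF+PBS replicates 1 and 3 and below 0 in replicates 4 and 5, and Mup20 is not.

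To see which other genes shared this pattern, the deviations of the summed central copies were compared with those of 11820 other genes at a mean of at least 1 CPM. Over all of these genes the median r was -0.021, and 0.863% had an r of at least 0.8. The gene lists compared here were chosen with results of these livers known, so their shares are descriptions and not independent evidence. Among 17 other genes known for higher expression in male liver, the median was 0.81 and 9 (52.9%) reached 0.8. They were Cyp4a12a (r = 0.97), Serpina1e (0.96), Cyp7b1 (0.96), C6 (0.95), Selenbp2 (0.95), Susd4 (0.93), Serpina3k (0.83), Gstp1 (0.82) and Cyp4a12b (0.81). When the 2 livers farthest from the median of the summed central copies were left out, Cyp7b1 was at 0.94, Serpina1e at 0.96, Cyp4a12b at 0.79 and Gstp1 at 0.72, and the lowest genes of the list were Keg1 (0.099) and Nudt7 (0.21).

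Of 11 genes known for higher expression in female liver, the median r was -0.58, and 2 were at -0.8 or under (18.2%, against 1.02% of all genes compared): Cyp17a1 (-0.97), a steroid hydroxylase, and Cyp2a4 (-0.82), a steroid hydroxylase of another family. The genes of this list with an r above 0 were Cyp2c69 (0.62), Cyp2b10 (0.55) and Atp6v0d2 (0.27). Cyp17a1 was 4.66, 9.47, 4.58, 17.1 and 14.8 CPM in GF+PBS replicates 1 to 5, low in the livers where Mup7 was high. In GF+MEV it was 14.03, 8.97, 13.3, 6.29 and 17.1 CPM, lowest in replicate 4, where Mup7 was highest, and highest in replicate 5, where Mup7 was lowest. The 12 tested genes of growth hormone and STAT5 signalling had a median r of 2e-05, with the largest absolute value in Bcl6 (-0.60), the STAT5-regulated repressor, while Ghr was at 0.12 and Stat5b at -0.34. Without GF+MEV replicate 2 the medians were 0.82 for the male-biased, -0.55 for the female-biased and 0.11 for the growth hormone genes. The 11 periportal genes described below had a median r of -0.60 with the summed central copies, with 0 at -0.8 or under. A negative median was thus not particular to the female-biased list. These correlations are descriptions over livers that include the alike GF+PBS replicates.

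**Figure D5:**
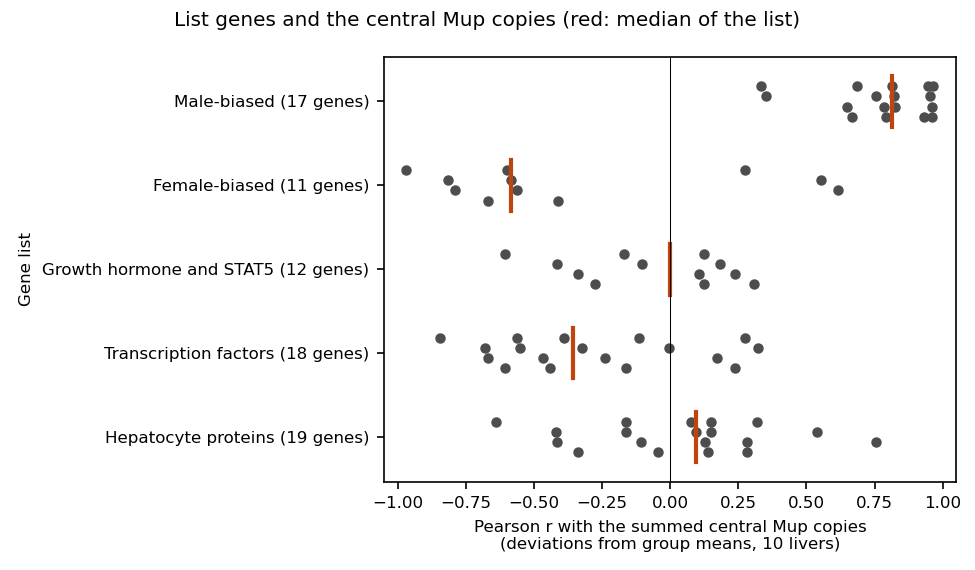
Pearson r of each gene with the summed central Mup copies, on deviations of log2 CPM from the group means over 10 livers, for 5 gene lists; points are genes and the red line is the median of the list. The male-biased list lies to the right (median 0.81), the female-biased list mostly to the left (median -0.58), and growth hormone and STAT5 genes around 0. The periportal list (median -0.60) is not drawn.

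Ranked one by one over the 10 livers, the genes most like Mup7 were Selenbp2 (r = 0.99), Cyp7b1 (0.99) and Serpina1e (0.98). The same genes led on deviations from the group means. Selenbp2, a selenium-binding protein, was 549, 298, 526, 204 and 194 CPM in GF+PBS and 535, 702, 749, 1155 and 326 CPM in GF+MEV. Cyp7b1, an oxysterol hydroxylase, was 147, 89.8, 134, 52.9 and 48.5 CPM in GF+PBS and 151, 186, 172, 267 and 92.5 CPM in GF+MEV. Both had the order of livers that Mup7 had in GF+PBS, apart from the order of replicates 4 and 5, and groups that overlapped. For Mup14, Mup15 and Mup17 the nearest genes were Rarres1, Asns and Cyp4a12a, and Cyp17a1 was farthest from Mup14 and Mup15 on deviations. Genes nearest to Mup20 on deviations were Gm34667, Gemin6 and Tyw3 (r = 0.95 to 0.96) and the farthest was Lrrc3 (-0.98), none of them in the lists examined. For Mup3 they were Akr1c20 (0.98), Prdx1 (0.97) and Washc3 (0.97), and for Mup21 Ssr1 (0.97), Cwc27 (0.96) and Ces3a (0.95).

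Promoter sequence was compared for the members whose upstream region was in the RefSeq table used (GRCm38.p6), 14 of the 22 and 10 of the 16 in the count table; Mup20 was not among them. In the 250 bases before the RefSeq start, 11 of 14 held TATATAA on either strand, against 3.04% of 32851 promoters of the same length. TTCNNNGAA, the form that STAT5 binds, was in 0 of 14, against 7.02%. The last 80 bases are shown for 2 central copies that varied together and for the divergent pair Mup3 and Mup21, with TATATAA in capitals (5′ to 3′, transcribed strand).
Mup15: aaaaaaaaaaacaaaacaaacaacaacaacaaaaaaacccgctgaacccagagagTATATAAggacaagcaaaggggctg
Mup17: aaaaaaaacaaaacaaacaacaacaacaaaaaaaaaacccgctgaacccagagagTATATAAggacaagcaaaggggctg
Mup3: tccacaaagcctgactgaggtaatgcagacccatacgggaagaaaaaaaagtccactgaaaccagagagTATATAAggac
Mup21: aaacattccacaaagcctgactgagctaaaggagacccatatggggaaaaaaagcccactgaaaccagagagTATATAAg
They lie at chr4:61439705-61439784 (Mup15), chr4:61595833-61595912 (Mup17), chr4:62087318-62087397 (Mup3) and chr4:62150842-62150921 (Mup21). In Mup15 and Mup17 the element was at the same place, and the bases downstream of it were alike. Mup3 and Mup21 had a different stretch further upstream and a RefSeq start nearer to the element. The GENCODE annotation, used for exons here, places the start further upstream, at 61439743 (Mup15), 61595871 (Mup17), 62087342 (Mup3) and 62150863 (Mup21). The printed bases therefore reach into its first exons, and the distance from element to start depends on the annotation. A match to these letters is a description of this window only.

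The other genes of the growth hormone route did not differ between groups in one direction. Of 14 listed, 12 were tested, of which 2 were called higher and 3 lower in GF+MEV by edgeR, with a median log2 fold change of 0.02. Hnf4a, a nuclear receptor of hepatocyte identity, rose (log2 fold change 0.45, edgeR adjusted p = 0.00036), from 489 to 570 CPM in GF+PBS to 682 to 775 CPM in GF+MEV. Igf1, the main growth hormone target secreted by the liver, rose by 0.31 (edgeR adjusted p = 0.029). The feedback inhibitors Cish (-1.60, edgeR adjusted p = 0.0055) and Socs3 (-1.18, edgeR adjusted p = 0.00028) and the signal transducer Stat5a (-0.54, edgeR adjusted p = 0.033) fell. Igf1 was not past the threshold in 9 of 22 alternative fits and Stat5a in 8, while Cish and Socs3 passed in all. Uncalled were Ghr at 501 and 528 CPM (group means, GF+PBS first), Igfals at 131 and 117 CPM, Stat5b at 64.8 and 62.7 CPM, and Bcl6 at 20.3 and 36.5 CPM. Cish was 15.2, 11.2, 18.4, 24.9 and 24.2 CPM in GF+PBS and 5.43, 2.48, 6.52, 12.01 and 4.05 CPM in GF+MEV, so that GF+MEV replicate 4 reached into the GF+PBS range.

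Of the 17 male-biased genes, 4 were called higher and 0 lower, with a median log2 fold change of 0.35. Ugt2b38, a glucuronosyltransferase, was the largest (1.84, edgeR adjusted p = 0.0014), at 2.32 to 5.22 CPM in GF+PBS and 5.59 to 21.8 CPM in GF+MEV. The complement component C6 (0.77, edgeR adjusted p = 0.027), Cyp4a12b, a fatty acid hydroxylase (0.66, edgeR adjusted p = 0.0062), and the serpin Serpina3k (0.35, edgeR adjusted p = 0.018) also rose. C6 was not past the threshold in 6 of 22 alternative fits, among them those without GF+MEV replicate 2 or 4 or GF+PBS replicate 4 or 5, Serpina3k in 3 and Cyp4a12b in 1. Serpina1e, Selenbp2 and Cyp7b1, nearest to Mup7 over the livers, had log2 fold changes of 0.83, 0.97 and 0.88 and were not called (edgeR adjusted p = 0.18, 0.096 and 0.1). Against GF+PBS replicates 1 and 3 alone, 1 gene of this list was called higher and 2 lower, and against replicates 2, 4 and 5 alone 11 were called higher. Left out one at a time, GF+MEV replicate 5 or GF+PBS replicate 1 raised the number called higher to 7. The list was chosen with results of these livers known and is not independent evidence.

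Of 25 female-biased genes, 11 were tested, of which 0 were called higher and 3 lower, with a median of -0.17. Cyp2b9, a cytochrome P450 nearly silent in adult male liver, was 14.7, 37.1, 13.2, 25.7 and 29.5 CPM in GF+PBS and 3.60, 0.897, 0.241, 1.12 and 9.51 CPM in GF+MEV (-3.01, edgeR adjusted p = 0.0037), with no overlap. Cyp2a4 (-2.24, edgeR adjusted p = 0.0082) and the peroxisomal transporter Abcd2 (-0.73, edgeR adjusted p = 0.037) also fell. Against GF+PBS replicates 1 and 3 alone 0 were called lower and 2 higher, and Abcd2 was not past the threshold in 10 of 22 alternative fits. In GF+PBS replicate 2, where Mup20 was lowest, both Cyp2b9 and Cyp2a4 were at their highest. In GF+MEV replicate 3, the liver of that group lowest for Mup20, Cyp2b9 was also at its lowest (0.241 CPM). On deviations from the group means over 10 livers, r with Mup20 was -0.096 for Cyp2b9 and -0.50 for Cyp2a4.

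The relatives of the Mup genes outside the cluster did not pass the test. Of 16 other lipocalin genes listed, 7 were tested and 0 were called, with log2 fold changes from -0.11 to 0.24. By group mean they included Rbp4, the plasma carrier of retinol (3659.6 CPM in GF+PBS and 3697 CPM in GF+MEV), Ambp (2411 and 2337 CPM), the acid glycoprotein Orm1 (501 and 518 CPM) and C8g (410 and 400 CPM).

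Of 18 transcription factors of the hepatocyte, 3 were called higher and 3 lower. Cebpb (2.004, edgeR adjusted p = 8.5e-08), a leucine zipper factor, Ppargc1a (1.21, edgeR adjusted p = 0.0013), a coactivator of fasting metabolism, and Hnf4a rose. Foxa2 (-1.49, edgeR adjusted p = 9.1e-07), Foxa1 (-0.66, edgeR adjusted p = 6.4e-05) and Cebpa (-0.29, edgeR adjusted p = 0.014), factors that open or maintain liver chromatin, fell.

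Mup genes are known to be expressed unevenly along the liver lobule, so zone markers were read as well. Of 10 tested pericentral genes 3 fell: Axin2 (-1.01, edgeR adjusted p = 0.0021), Lect2 (-0.50, edgeR adjusted p = 0.0011) and Aldh1a1 (-0.44, edgeR adjusted p = 0.025). Aldh1a1 was not past the threshold in 6 of 22 alternative fits, among them those without GF+MEV replicate 1 or GF+PBS replicate 1 or 3. Of 11 periportal genes 4 rose, namely the serine dehydratase Sds (1.58, edgeR adjusted p = 9.2e-06), the urea cycle enzymes Ass1 (0.36, edgeR adjusted p = 0.0091) and Arg1 (0.31, edgeR adjusted p = 0.011), and the adhesion protein Cdh1 (0.35, edgeR adjusted p = 0.012). Glul and Cyp2e1, defining pericentral genes, were at 1025 and 8599 CPM in GF+PBS and 1035 and 8718 CPM in GF+MEV. Summed pericentral levels were 14657 to 15040 CPM in GF+PBS and 12843 to 14810 CPM in GF+MEV, and summed periportal levels 6551 to 8016 CPM and 7711 to 9186 CPM; their part in the Mup differences was not tested.

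In the remaining lists the called genes were Tat (2.10) and Cps1 (0.38) of the hepatocyte proteins, Ddx3y (0.30), the endothelial Lyve1 (0.84) and Clec4g (-0.48), the cholangiocyte keratin Krt19 (3.87), and the B cell genes Cd79a (-0.87) and Cd79b (-0.76), all log2 fold changes at an edgeR adjusted p under 0.05. Of 22 alternative fits, Cps1 and Ddx3y were not past the threshold in 13 each, Cd79b in 10, Lyve1 in 9, Clec4g in 5 and Cd79a in 1. Epcam, Krt7 and Cldn7 of the cholangiocyte list were not rows of the table. Krt19 was at 0.303 to 0.781 CPM in GF+PBS and 0.964 to 16.8 CPM in GF+MEV.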

How the data were processed

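Per the labels and the study's methods, RNA from whole liver was sequenced (Illumina HiSeq), reads were converted with bcl2fastq 2.17 and aligned to GRCm38 with STAR 2.7.3a in two-pass mode, and the authors deposited HTSeq counts per Ensembl gene after removing genes under 20 counts. Treatment of multiply aligned reads, strand, read length and annotation version were not given in the sources used here. Columns of 5 other libraries, which match no sample here, were not used. Counts of the 10 libraries (12147 genes with a sum of at least 20) were fitted with edgeR 4.0.16 (TMM, quasi-likelihood test, treatment alone, Benjamini-Hochberg, threshold 0.05; CPM with a prior count of 2 on the log scale). DESeq2 1.42.0, limma 3.58.1 (voom), other scalings and filters, a replicate block and left-out livers were alternatives. Printed log2 fold changes of the main fit are those of edgeR. Each printed SE came from a separate unmoderated linear model (limma) of log2 CPM. The fits were tested on simulated data. Nothing in the labels says whether mice of a group were littermates or shared a cage. The p-values set the group difference against the spread between these livers, taken as independent. If each group had its own cage or litter, an effect of either could not be told apart from treatment. No replicate pair agreed within sampling noise. Replicate numbers did not pair the groups.

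Gene names, exons and transcripts came from GENCODE vM21 (GRCm38), and all 16 members matched by identifier. Shared sequence was searched among annotated transcripts of other genes (exact stretches of 100 bases), in place of the whole genome, which was not used here. Percent identities of coding sequences came from pairwise global alignments (Biopython), with gap columns counted in the length. MAFFT 7.526 aligned the coding sequences to place the printed coding window. Upstream sequences came from RefSeq. Named genes were all members, all genes called in a list (at most 3 in each direction), up to 4 uncalled signalling and lipocalin genes by mean CPM, and the 3 nearest and 3 farthest genes by Pearson r, of which examples are given. The members and lists were chosen with earlier results of these data known.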

Additional observations from a re-analysis of the deposited data

Results flagged for a closer look

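Mup-ps13, a Mup pseudogene, was at 9.56 CPM in GF+MEV replicate 3, away from the other 4 GF+MEV livers (13.4 to 14.3 CPM). Of 44 groups of 5 livers examined for a single distant liver (16 genes and 6 pseudogenes, 2 groups each), it was 1 of 1 found, and chance alone gives about 2.2. GF+MEV replicate 3 also had the lowest summed Mup level of its group.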

How the results depend on the processing

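Without scaling beyond the library total, 332 genes were called higher and 691 lower, and with the alike GF+PBS replicates summed 209 were called lower. That sum left 1 Mup gene called higher and 0 lower, 1 growth hormone gene higher and 2 male-biased genes higher. With upper-quartile or no scaling, 1 growth hormone gene was called higher and 1 male-biased gene lower, and DESeq2 also called 1 male-biased gene lower. Against GF+PBS replicates 1 and 3 alone, added after the data were seen, 7 Mup genes had a fold change above 0 and 1 was called higher; log2 fold changes were -0.34 (Mup11), -0.52 (Mup1), -0.62 (Mup12) and -0.33 (Mup8); 1 male-biased gene was called higher and 2 lower, 2 female-biased genes higher and 0 lower, 5 transcription factors higher and 1 pericentral gene higher. Against replicates 2, 4 and 5 alone, 6 Mup genes were called higher (3.14% of all tested genes were) and 0 lower, with 2.72 for Mup7, 1.79 for Mup14, 0.76 for Mup1, 0.67 for Mup12 and 0.91 for Mup8; 1 growth hormone gene, 11 male-biased genes and 2 periportal genes were called higher. The cause was not tested. These subsets of GF+PBS differ in Mup level, so the difference between their Mup counts follows from the split. Of all tested genes, 5.62% were called higher against replicates 1 and 3 alone.

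Leaving out 1 liver at a time gave 1 to 3 Mup genes called higher, 1 to 2 growth hormone genes higher, 3 to 7 male-biased genes higher and 0 to 1 lower. Over all tested genes, 388 to 561 were called higher and 304 to 397 lower in these fits. Blocking on the replicate number gave log2 fold changes of 0.84 for Mup20 and 1.54 for Mup7, and called 450 genes higher and 342 lower, with Aldh1a1, Cps1, Ddx3y, Lyve1 and Cd79b no longer past the threshold; same-numbered livers had correlations of deviations from -0.19 to 0.17, so the numbers were not taken as pairs. The median share of stretches found in another gene was 73.1% at 100 bases, 81.1% at 50 and 65.3% at 150. By length with sequence of its own, Mup3 was 2.52 times Mup20 in GF+PBS. Depth limits Mup6 and Mup8, with 3 to 18 counts a library, and shared sequence limits the central copies, Mup8 included.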
